A study of Mus musculus with 27 samples.

Results

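The genes described here are 35 genes of cholesterol and fatty acid synthesis, taken by symbol from a fixed list among the 41388 gene identifiers of the deposited count table. They comprise 18 enzymes of the sterol route from acetoacetyl-CoA to cholesterol, 7 genes that sense or regulate sterols, and 10 genes that make, elongate or desaturate fatty acids. The list was made by symbol and not by a measured value, but earlier results of these data were known when it was chosen. All 35 passed the filter on low counts, a mean normalized count of at least 10, as did 12661 genes in all.

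The libraries were made from macrophages sorted from the dura, the outer membrane around the brain, of B6 mice with the genotype Rag1 ko. Loss of Rag1 stops lymphocyte receptor rearrangement, so that no group has T or B lymphocytes from the host. The mice were 16 to 19 weeks old. The 6 libraries of the group without T cells are labelled steady state. The other mice were studied 6.5 weeks after reconstitution, with total B6 T cells in 5 libraries, Tbet ko T cells in 2, IFNg ko T cells in 2, IL6Ra ko/IL21R ko T cells in 7, IL-17AF ko T cells in 2 and IL22 ko T cells in 3. The labels do not say whether single T cells lacked both the IL-6 and the IL-21 receptor, which subsets were given, or which markers defined the sort. No donor is traced from a library to an animal in the labels, so p-values here reflect library-to-library spread over 27 libraries, part of which may be technical. The names of the 2 T-bet columns do not exclude a single animal as the source of both.

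The libraries held between 6902602 and 19966749 counts. They fell into 3 sets by the levels of their ribosomal protein genes, which took 2.62% to 3.21% of the counts in set A, 1.08% to 1.51% in set B and 0.697% to 0.831% in set C. In set A were 4 no T and 3 total T libraries. Set B comprised 2 no T and 2 total T libraries, 6 with IL-6Ra/IL-21R-deficient and all 3 with IL-22-deficient T cells. Set C held every library with T-bet-, IFN-γ- or IL-17A/F-deficient T cells and 1 male IL-6Ra/IL-21R-deficient library, named M4. The other male libraries were 2 no T and 1 total T in set A, and 3 IL-6Ra/IL-21R and 1 IL-22 in set B. All the rest were female. The column names of some IL-6Ra/IL-21R libraries, M4 among them, do not exclude pools of animals. Those 3 genotypes therefore share no set with either control group, and set and genotype cannot be told apart there. Macrophage markers, among them Csf1r and Adgre1, summed to between 19060 and 30780 CPM (read counts scaled to a common library size, with TMM factors) in every library. Cd3e, which marks T cells, stayed under 0.96 CPM, but the full list of 10 T cell markers summed to 41.4 to 230 CPM. That sum was 83.7 to 188 CPM without T cells, 41.4 to 142 CPM with total T cells and 169 to 224 CPM in set C. In bulk RNA of sorted cells, fewer cells of a type and less RNA per cell cannot be told apart.

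Cholesterol is built from acetyl-CoA through mevalonate, the isoprenoid farnesyl pyrophosphate, squalene and lanosterol. Transcription of these enzymes is driven by SREBP proteins, which are held in the endoplasmic reticulum by INSIG proteins while sterols are plentiful and are carried to the Golgi by SCAP, to be cut into active factors, when sterols are scarce. SREBP-2 acts mainly on sterol genes. SREBP-1c acts mainly on fatty acid genes and is itself induced by liver X receptors, which sense oxysterols and in macrophages also turn on cholesterol export.

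The promoters of the sterol enzymes share a sequence feature that the choice of genes did not use. SREBPs act together with the factor NF-Y, whose box CCAAT was searched on both strands (it reads ATTGG on the other strand) in the 250 bases before each RefSeq start site in GRCm38.p6. Of the 35 genes 28 had an entry there. The box occurred in 37.5% of the 27025 genes of the table, in 14 of the 15 sterol enzymes with an entry, in 5 of the 6 regulators and in 3 of the 7 fatty acid genes. The sterol regulatory element TCACNCCAC, searched on both strands, occurred in 1.2% of all genes and in 1 of the 28, Hmgcs1. A match is a description of these letters and no evidence of binding. The 4 promoters below belong to genes whose values recur in the results and hold 3 boxes in Hmgcs1, 2 in Mvd, 1 in Insig1 and none in Acly. The most among the 28 was 5, in Mvk. Capitals mark a CCAAT box on either strand or the sterol regulatory element, and each is written 5′ to 3′ along its gene's strand.
Hmgcs1, chr13:119690101-119690350, plus strand: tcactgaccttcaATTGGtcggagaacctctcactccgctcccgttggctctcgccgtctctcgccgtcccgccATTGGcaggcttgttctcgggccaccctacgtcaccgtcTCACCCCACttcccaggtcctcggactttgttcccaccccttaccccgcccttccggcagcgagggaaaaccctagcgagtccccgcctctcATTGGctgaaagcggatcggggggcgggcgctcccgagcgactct
Mvd, chr8:122443423-122443672, minus strand: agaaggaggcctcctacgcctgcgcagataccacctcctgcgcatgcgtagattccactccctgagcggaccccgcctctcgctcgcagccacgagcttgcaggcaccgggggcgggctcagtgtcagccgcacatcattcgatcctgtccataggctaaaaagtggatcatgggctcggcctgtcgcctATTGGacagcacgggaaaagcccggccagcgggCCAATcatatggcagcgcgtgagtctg
Insig1, chr5:28071162-28071411, plus strand: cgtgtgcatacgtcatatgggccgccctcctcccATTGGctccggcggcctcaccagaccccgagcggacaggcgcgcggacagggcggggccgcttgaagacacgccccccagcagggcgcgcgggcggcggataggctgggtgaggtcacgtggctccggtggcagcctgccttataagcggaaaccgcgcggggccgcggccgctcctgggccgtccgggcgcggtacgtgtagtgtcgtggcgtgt
Acly, chr11:100528001-100528250, minus strand: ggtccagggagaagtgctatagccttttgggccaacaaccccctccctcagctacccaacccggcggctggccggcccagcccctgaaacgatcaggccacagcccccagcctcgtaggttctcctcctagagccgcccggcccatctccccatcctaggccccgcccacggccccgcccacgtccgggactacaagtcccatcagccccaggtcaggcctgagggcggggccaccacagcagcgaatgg

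The 35 genes spanned a wide range of levels in dural macrophages. Per kilobase of exon, the mean level over all 27 libraries was highest for Fads1, the delta-5 fatty acid desaturase, at 41.5 CPM per kb. Insig1, an anchor of the SREBP complex, was next at 41.1 CPM per kb. Acly, which makes cytosolic acetyl-CoA from citrate, followed at 33.1 CPM per kb, and Ebp, a sterol isomerase late in the route, at 29.8 CPM per kb. The lowest levels were those of Acaca, which makes malonyl-CoA, at 0.53 CPM per kb and Idi1, the isopentenyl diphosphate isomerase, at 0.36 CPM per kb. Idi1 had between 2 and 58 counts per library, so its values carry wide counting error.

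Over 11 comparisons between groups, 20 of the 35 genes were called in at least 1 (edgeR quasi-likelihood test, Benjamini-Hochberg adjusted p under 0.05 over all 12661 genes), against 53.1% of all genes tested. The share of the 35 was therefore close to that of genes at large. The 15 that were called in none were the sterol enzymes Acat2, Mvk, Fdft1, Sqle, Lss, Cyp51, Nsdhl, Hsd17b7, Sc5d and Dhcr7, the regulators Srebf2, Scap, Stard4 and Mylip, and the fatty acid elongase Elovl6. A test of any difference among the 7 groups called 11 of the 35, against a background of 38.4%. The total T libraries enter 6 of the 11 comparisons, so those results are not independent of each other.

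**Figure D1:**
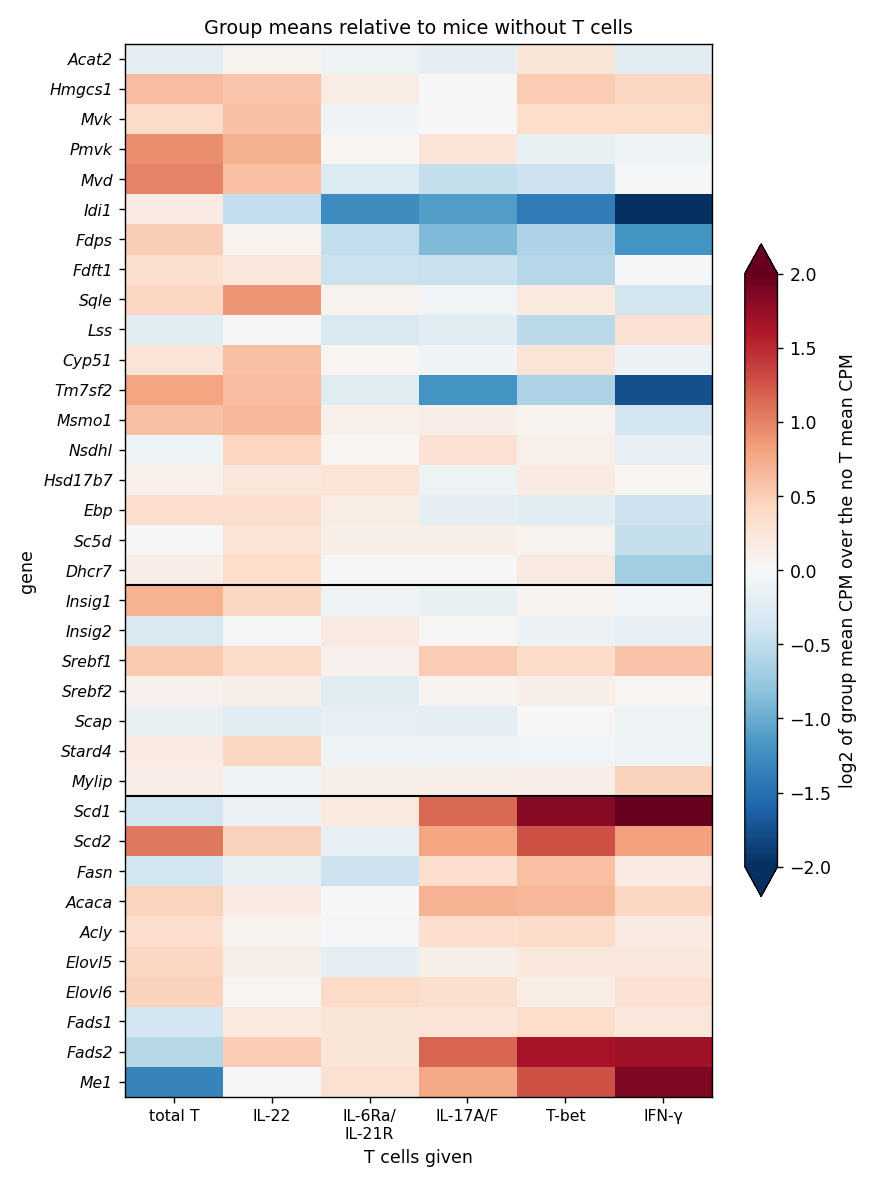
Each row is 1 of the 35 genes, in the order sterol enzymes, regulators and fatty acid genes with a line between them. Colour gives the log2 ratio of a group's mean CPM to the mean of the 6 libraries without T cells, and values past 2 in either direction take the end colour. Pmvk, Mvd and Insig1 were above the no T mean in the total T and IL-22 columns, and Scd1, Fads2 and Me1 in the 3 columns of library set C, where genotype and set cannot be told apart.

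Macrophages from mice given total T cells were compared first with those from mice without T cells, which asks what the presence of T cells goes along with. Of the 35 genes 9 rose and none fell, or 25.7%, against 21.0% of all genes called in either direction, of which 11.7% were higher and 9.39% lower. DESeq2 and edgeR with the library set as a term each called 9 genes higher and 2 lower, Fads1 and Me1, and Fads1 and Me1 were also called lower with no filter and with a filter at 50 counts, and Me1 and Fasn without the libraries of set C. The median log2 difference of the 35 was 0.25, beside -0.02 over all genes tested. The 9 were the sterol enzymes Hmgcs1, Pmvk, Mvd and Ebp, the regulators Insig1 and Srebf1, and the fatty acid genes Scd2, Acly and Elovl5. By branch, that was 4 of 18 sterol enzymes, 2 of 7 regulators and 3 of 10 fatty acid genes.

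**Figure D2:**
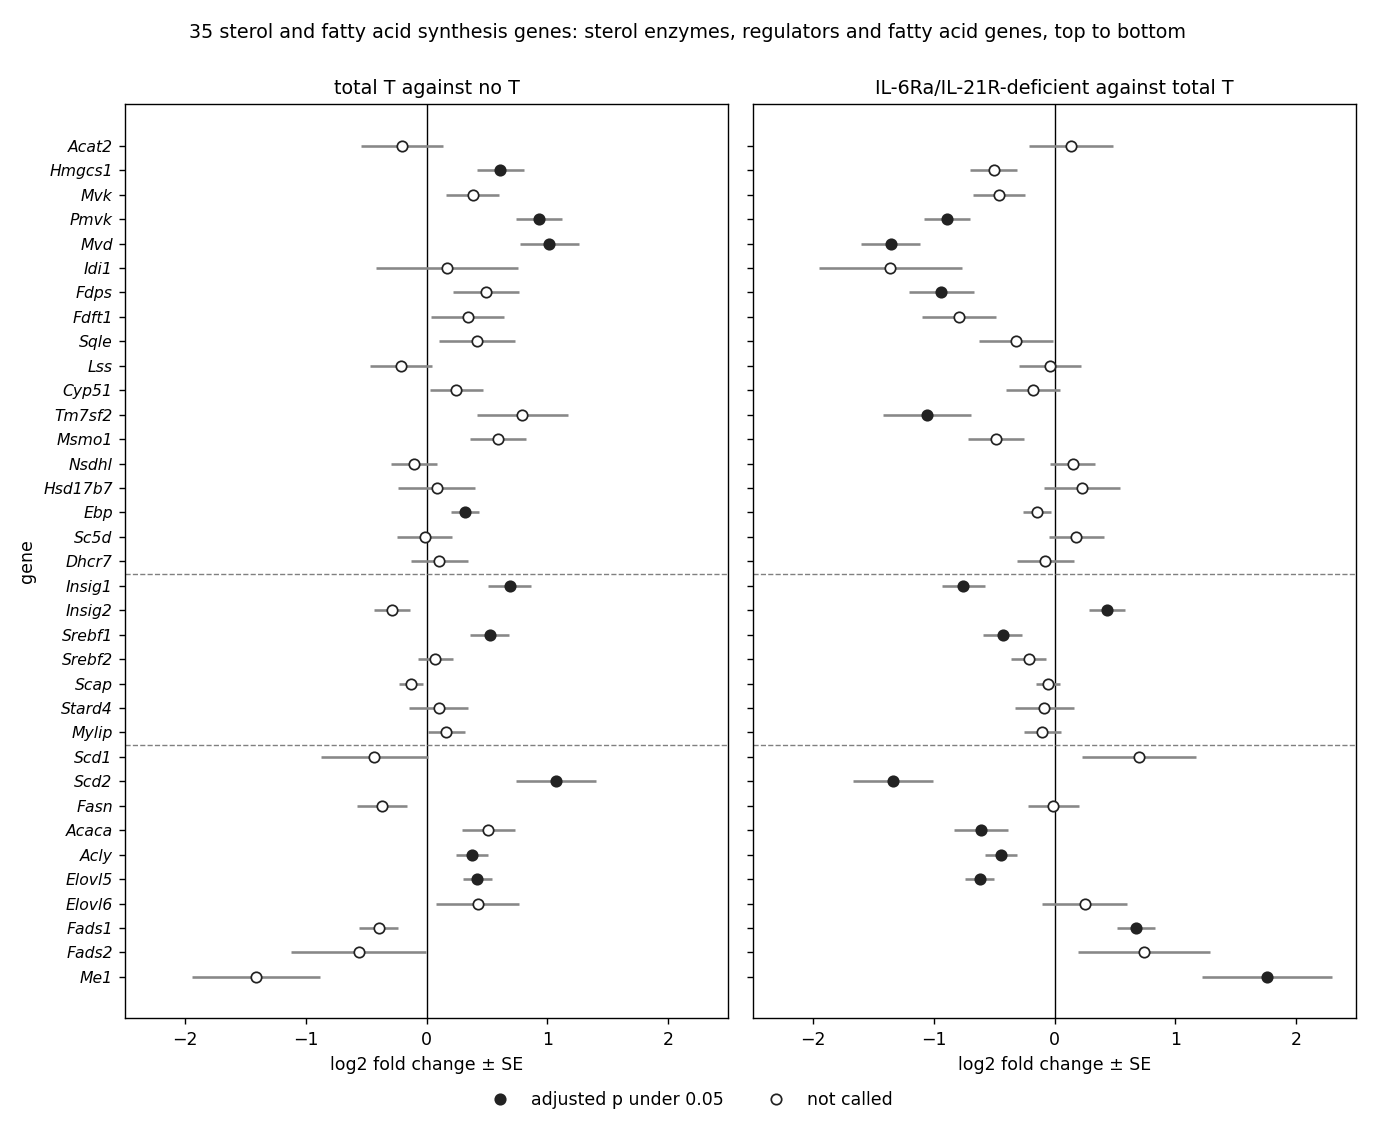
Points give the log2 fold change of each of the 35 genes with its SE, on the left for total T (5 libraries) against no T (6 libraries) and on the right for IL-6Ra/IL-21R-deficient T (7 libraries) against total T. Filled points passed an adjusted p of 0.05; 9 did on the left, all to the right of 0, and 13 on the right, 10 of them to the left of 0.

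Of the 4 sterol enzymes that rose, 3 act before farnesyl pyrophosphate and Ebp acts after lanosterol. Pmvk, phosphomevalonate kinase, was at 29.1, 22.9, 26.3, 27.8 and 26.3 CPM in the 5 total T libraries. Without T cells it lay between 10.9 and 18.4 CPM with a median of 13.1 (n = 6). Every total T library was above every library without T cells, and the log2 difference was 0.93 ± 0.19 (SE, adjusted p = 0.00139). Mvd, which decarboxylates mevalonate pyrophosphate in the step after Pmvk, was at 32.9, 12.9, 15.5, 19.3 and 25.7 CPM with total T cells. Without T cells Mvd ranged from 8.21 to 14.5 CPM with a median of 10.2. The groups overlapped in Mvd, since the second total T female library lay inside the range of the group without T cells, and the difference was 1.02 ± 0.24 (adjusted p = 0.00404). Hmgcs1, the synthase that feeds HMG-CoA into the route, was at 47.5, 23.5, 32.6, 26.5 and 45.2 CPM with total T cells and between 15.9 and 32.4 CPM, median 22.2, without. Its difference of 0.61 ± 0.19 (adjusted p = 0.0263) came with overlapping groups. Ebp rose by 0.32 ± 0.12 (adjusted p = 0.0492), from 64.5 ± 5.29 CPM (SD, n = 6) to 81.1 ± 12.4 CPM (n = 5), at the edge of the threshold.

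The other 14 sterol enzymes were not called in this comparison. Mvk, the kinase just before Pmvk, differed by 0.38, and Fdps, Fdft1 and Sqle, which lead through farnesyl pyrophosphate and squalene to squalene epoxide, by 0.49, 0.34 and 0.42. The post-lanosterol enzymes Tm7sf2 and Msmo1 differed by 0.79 and 0.59, and Acat2, Lss, Nsdhl and Sc5d lay below 0. The exons of some sterol enzymes overlap those of other genes, and the libraries were unstranded. How reads in such stretches were counted is not known, so these values are uncertain. For Fdft1, 18.3% of the exon length overlaps Ctsb on the opposite strand, and for Fdps 26.7% overlaps Gm43738, for Tm7sf2 12.1% overlaps Vps51 and for Hmgcs1 12.1% overlaps Gm48342.

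Among the regulators, Insig1 was at 194, 164, 191, 159 and 204.5 CPM in the total T libraries and between 88.0 and 142 CPM, median 111, without T cells. The groups did not overlap, and Insig1 rose by 0.69 ± 0.18 (adjusted p = 0.00747). Srebf1, which encodes the SREBP-1 forms, was at 92.7, 53.5, 52.5, 50.3 and 68.5 CPM with total T cells and between 38.2 and 48.9 CPM, median 44.6, without. The Srebf1 groups did not overlap either, with a difference of 0.52 ± 0.16 (adjusted p = 0.0219), and 1 female and the male library with total T cells were well above the other 3. Srebf2, the gene of the main sterol regulator, differed by 0.07, and Scap, Stard4, a cytosolic sterol carrier, and Mylip, a ubiquitin ligase, by -0.13, 0.10 and 0.16. None of those 4 was called, nor was Insig2, the second anchor gene, at -0.29. Over the 35 genes, every total T library lay above every no T library in 4, Pmvk, Insig1, Srebf1 and Elovl5, against 6.49% of all genes tested, and below in none, against 4.08%.

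**Figure D3:**
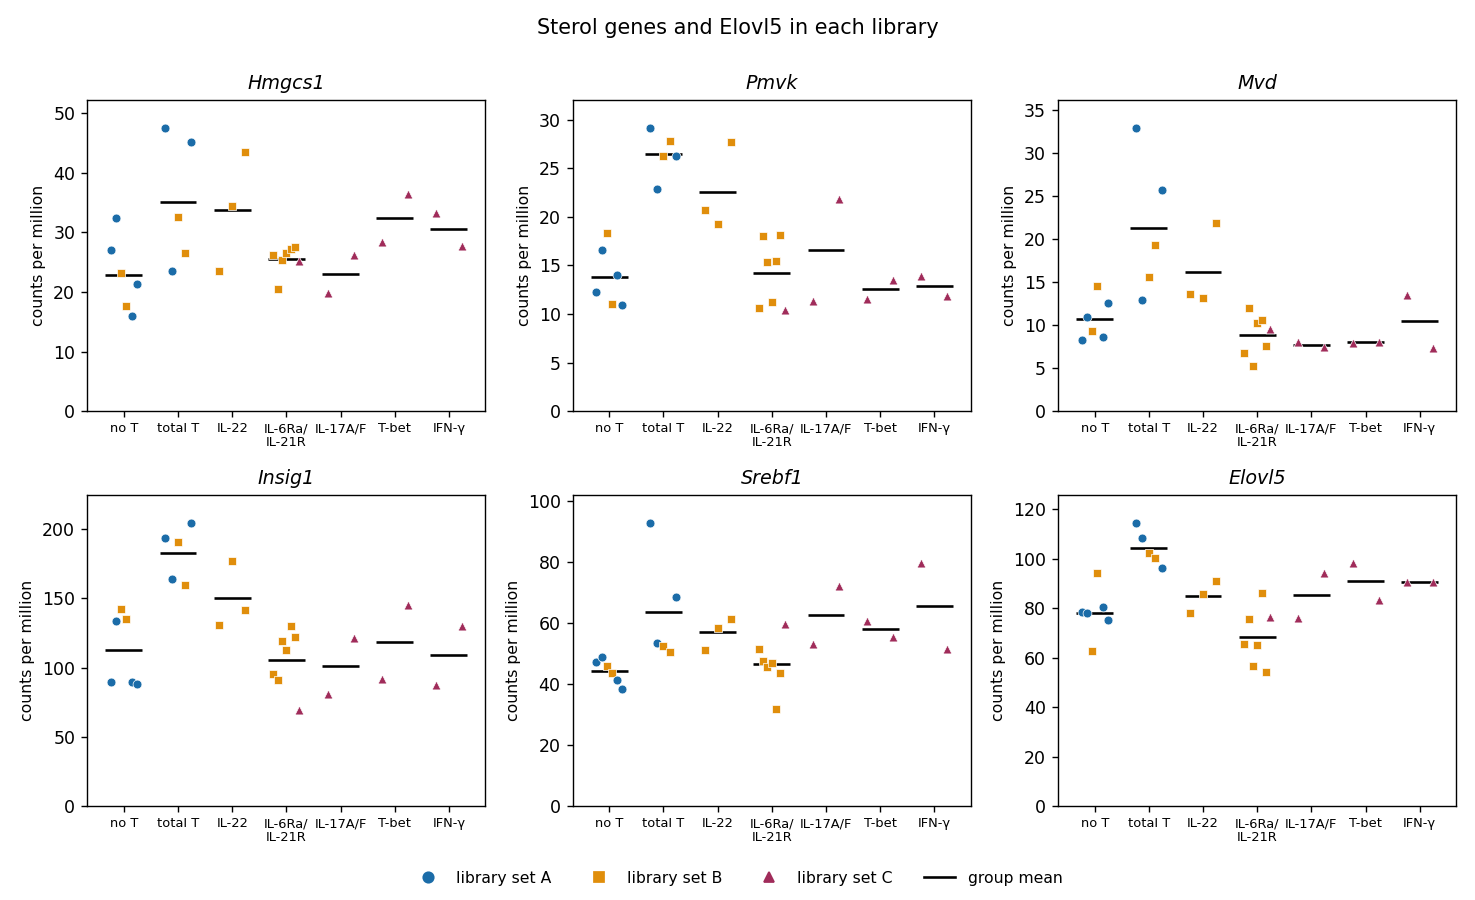
Each point is 1 library, with its level in CPM on an axis that starts at 0, grouped by the T cells given. Colour and shape mark the library sets A, B and C, and the black line is the group mean. In Pmvk, Insig1 and Elovl5 all 5 total T libraries lie above the libraries without T cells, and above all 7 IL-6Ra/IL-21R libraries. In Srebf1 the total T libraries overlap those of other groups given T cells.

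The fatty acid genes moved less evenly. Elovl5, an elongase of polyunsaturated fatty acids, was at 114, 108, 102, 100.4 and 96.0 CPM with total T cells and between 62.6 and 94.0 CPM, median 78.2, without. It rose by 0.42 ± 0.12 (adjusted p = 0.0123) with no overlap. Scd2, a stearoyl-CoA desaturase, was at 169, 55.8, 40.1, 42.9 and 107 CPM with total T cells and between 33.5 and 55.0 CPM, median 37.4, without. Its difference of 1.07 ± 0.33 (adjusted p = 0.0229) came with overlapping groups, and the first female library and the male library, both of set A, were the highest. Without the first female library it was 0.56 (adjusted p = 0.197), and without the male library 1.04 (adjusted p = 0.0639). Acly rose by 0.37 ± 0.13 (adjusted p = 0.0475), with overlapping groups at 290, 165, 172, 163 and 213 CPM with total T cells against 139 to 192 CPM, median 156, without. Without the first female library the Acly difference was 0.19 (adjusted p = 0.24).

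Fasn and Acaca, the synthase and the carboxylase at the core of fatty acid synthesis, were not called. Fasn was at 36.1 ± 2.77 CPM (SD, n = 5) with total T cells and at 46.3 ± 10.2 CPM (n = 6) without, a log2 difference of -0.37, and Acaca differed by 0.51. Scd1, the other desaturase, differed by -0.43 and Fads1 by -0.40 (adjusted p = 0.0748). The malic enzyme gene Me1, a source of NADPH, had a difference of -1.41 that was not called either (adjusted p = 0.0596), on levels of 1.33 ± 1.09 CPM with and 3.37 ± 0.91 CPM without T cells. Fads2 had no count in 1 total T library, which allows up to 0.204 CPM.

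The comparison of total T with no T could be made within library sets A and B. In set A alone, 6 of the 35 genes were higher (Pmvk, Mvd, Insig1, Srebf1, Scd2 and Elovl5) and Fads1 was lower, against 16.2% of genes called there. In set B alone, with 2 libraries a group, none of the 35 was called, against 0.746% of genes. An unadjusted p under 0.05 was found there for 3 of the 35 and for 15.6% of all genes. In set B the differences of the 9 genes ran from 0.14 for Scd2 to 0.87 for Pmvk (log2), in libraries that had also entered the fit which called them. A test of whether the difference itself changed between the sets called 0 of 12780 genes, with 1276 at an unadjusted p under 0.05, among them 1 of the 35, Scd2, at a set B minus set A difference of -1.24 (edgeR, adjusted p = 0.45). In female libraries alone 2 of the 35 were called. Leaving out single libraries gave between 4 (without the male total T library) and 10 genes (without the second female one), and 5 without no T M2 or without the first total T female. Without the first total T female the differences of Hmgcs1, Ebp, Srebf1, Scd2 and Acly were 0.47, 0.23, 0.35, 0.56 and 0.19, none of them called, and none of these 5 was called without the male total T library. Pmvk, Mvd, Insig1 and Elovl5 were called whichever library was left out.

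Markers of cell origin moved with this comparison, and their part in the result was not tested. The 10 monocyte-derived markers rose, all 10 of them, and summed to 1934 to 8999 CPM with total T cells and 726 to 1338 CPM without. The 10 border macrophage markers fell, from 7163 to 10720 CPM to 1753 to 6178 CPM. Of the 10 fibroblast markers 4 fell and none rose, and their sums did not overlap, at 567 to 668 CPM with total T cells and 914 to 2573 CPM without. Of the 7 neutrophil markers tested 2 rose, and of the 2 T cell markers tested 1 fell. The total T library with the highest monocyte-derived sum was the first female one. It was also the highest of the 5 in Hmgcs1, Pmvk, Mvd, Ebp, Srebf1, Scd2, Acly and Elovl5, though not in Insig1, and the lowest in Fads1.

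Mice given IL-6Ra/IL-21R-deficient T cells were then set against those given total T cells, which asks whether these cytokine receptors on the T cells matter for what the macrophages express. Of the 35 genes 10 fell and 3 rose, or 37.1%, against 28.2% of all genes, 15.1% of which were lower and 13.1% higher. By branch, 4 of 18 sterol enzymes fell. Of the 7 regulators 2 fell and 1 rose, and of the 10 fatty acid genes 4 fell and 2 rose. The median difference of the 35 was -0.18, beside 0.03 over all genes.

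The mevalonate pair was again among the genes that moved. Mvd lay between 5.28 and 12.02 CPM in the 7 IL-6Ra/IL-21R libraries, with a median of 9.58, below every total T library, and fell by 1.36 ± 0.24 (SE, log2, adjusted p = 0.000189). Pmvk lay between 10.4 and 18.1 CPM, median 15.3, also below every total T library, and fell by 0.89 ± 0.19 (adjusted p = 0.00115). Insig1 lay between 69.3 and 130.0 CPM, median 113, without overlap, and fell by 0.76 ± 0.18 (adjusted p = 0.00249). These 3 genes were called under every alternative run, set B alone included, where they differed by -1.19, -0.94 and -0.72 and were the only ones of the 35 called, against 6.74% of all genes. Fdps fell by 0.94 ± 0.27 (adjusted p = 0.0108) and Tm7sf2 by 1.06 ± 0.36 (adjusted p = 0.0315), both with overlapping groups. Idi1 differed by -1.36 and Hmgcs1 by -0.50, and neither was called.

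In the fatty acid branch, Elovl5 lay between 54.0 and 86.0 CPM, median 65.4, below every total T library, and fell by 0.62 ± 0.12 (adjusted p = 0.000363). Scd2 fell by 1.34 ± 0.33 (adjusted p = 0.0036). Its IL-6Ra/IL-21R libraries lay between 19.3 and 36.5 CPM in set B, while M4 was at 71.6 CPM. Acly fell by 0.45 ± 0.13 (adjusted p = 0.0143) and Acaca by 0.61 ± 0.22 (adjusted p = 0.0435). Without the first total T female Acly differed by -0.27 (adjusted p = 0.0619) and Acaca by -0.47 (adjusted p = 0.144). Srebf1 fell by 0.43 ± 0.16 (adjusted p = 0.046), a call that 14 of 22 alternatives did not make, and differed by -0.15 in set B alone (adjusted p = 0.676). Total T libraries were above all 7 IL-6Ra/IL-21R libraries in 4 of the 35 genes, Pmvk, Mvd, Insig1 and Elovl5, against 6.53% of all genes, and below them in Insig2, against 4.31%.

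The 3 genes that rose were Fads1, Me1 and Insig2. Fads1 was at 78.5, 141, 209, 181 and 111 CPM with total T cells, its 3 lowest values being those of set A, and between 194 and 245 CPM, median 225, with IL-6Ra/IL-21R-deficient T cells. It rose by 0.67 ± 0.16 (adjusted p = 0.00267), but by 0.21 in set B alone (adjusted p = 0.347). Me1 rose by 1.76 ± 0.54 (adjusted p = 0.0165) and Insig2 by 0.43 ± 0.15 (adjusted p = 0.033), and neither was called in set B alone. Leaving out the male total T library lowered the count of called genes to 8 and leaving out the second or the fourth female one gave 14. With the library set as a term 4 of the 35 were called, all lower. All 10 monocyte-derived markers were lower and all 10 border macrophage and all 10 fibroblast markers higher in this comparison. All 7 neutrophil markers tested were lower, with a median log2 difference of -7.86 and summed levels of 69.6 to 99.2 CPM against 106 to 467 CPM with total T cells, and both T cell markers tested were higher. The part of these markers in the result was not tested.

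Against mice without T cells, those given IL-6Ra/IL-21R-deficient T cells showed no called gene among the 35, against 1.15% of all genes. By edgeR none of the 35 had an unadjusted p under 0.05, against 10.8% of all genes. DESeq2 called none either. The differences ran from -1.19 for Idi1 to 0.67 for Elovl6, with a median of 0.03. Pmvk differed by 0.04 and Insig1 by -0.07, and Mvd by -0.34. Leaving out M4 gave 1 called gene, Fasn, at a difference of -0.57 (edgeR, adjusted p = 0.0324). Without the libraries of set C Fasn was also called, at -0.59 (edgeR, adjusted p = 0.0208). A difference that misses the threshold does not show equal levels.

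Mice given IL-22-deficient T cells had mean levels of Pmvk, Mvd and Insig1 between those without T cells and those with total T cells. Other sterol enzymes, among them Mvk, Sqle, Cyp51 and Nsdhl, had means above those with total T cells. The median log2 difference of the 18 sterol enzymes from total T cells was 0.12. No difference passed the test in the main model. Pmvk was at 20.7, 19.2 and 27.8 CPM, Mvd at 13.6, 13.2 and 21.9 CPM and Insig1 at 131, 177 and 142 CPM in the 3 libraries. Against total T cells 0 of the 35 were called by edgeR, against 0.0869% of all genes. An unadjusted p under 0.05 was found for 4 of the 35 (Nsdhl, Elovl5, Fads1 and Me1), against 17.3% of all genes. DESeq2 called 1 and edgeR without the filter 2. Against no T cells 0 were called by edgeR and by DESeq2, against 0.00790% of genes by edgeR. An unadjusted p under 0.05 was found for 7 of the 35, against 9.37% of all genes. Those 7 were Hmgcs1, Mvk, Pmvk, Sqle, Cyp51, Msmo1 and Ebp, all sterol enzymes and all higher, by 0.34 for Ebp to 0.90 for Sqle. The smallest adjusted p among them was 0.215, for Pmvk. In set B alone, which holds all 3 IL-22 libraries but only 2 no T libraries, none of the 35 was called against no T cells. There 2 of the 35 had an unadjusted p under 0.05 by edgeR, against 10.5% of all genes. Against total T cells in set B none was called either, and 2 of the 35 had an unadjusted p under 0.05, against 6.82%.

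Against IL-6Ra/IL-21R-deficient T cells, the IL-22 libraries gave 0 called genes of the 35 by edgeR and by DESeq2, against 0.00790% of all genes by edgeR. An unadjusted p under 0.05 was found for 9 of the 35, all higher, and for 8.59% of all genes. Mvd differed by 0.92 ± 0.27 (adjusted p = 0.202) and Pmvk by 0.67 ± 0.22 (adjusted p = 0.275). In set B alone, which holds all 3 IL-22 libraries and 6 of the 7 others, none of the 35 was called, against 1.36% of all genes, and 15 of the 35 had an unadjusted p under 0.05, against 12.8% of all genes. The closest was Scd2 at a difference of 0.87 (adjusted p = 0.0668).

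The T-bet-, IFN-γ- and IL-17A/F-deficient groups, each of 2 female libraries in set C, were also set against total T cells. With T-bet-deficient T cells 5 of the 35 rose and 4 fell, against 30.0% of all genes, 14.9% higher and 15.1% lower. With IFN-γ-deficient T cells 4 rose and 8 fell, against 36.8%, 17.4% higher and 19.5% lower, and with IL-17A/F-deficient T cells 3 rose and 5 fell, against 25.1%, 12.6% higher and 12.5% lower. All sterol enzymes called were lower and all fatty acid genes called were higher in each of the 3 comparisons, and Insig1 was the one regulator called, lower with IFN-γ- and with IL-17A/F-deficient T cells. Set and genotype cannot be told apart here. With the library set as a term, which for these groups rests on M4 alone, 0 of the 35 were called in each comparison.

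Scd1, which desaturates stearoyl-CoA, was at 35.7 and 47.0 CPM with T-bet-deficient, 74.4 and 45.3 CPM with IFN-γ-deficient and 15.1 and 36.6 CPM with IL-17A/F-deficient T cells. The 20 libraries of sets A and B lay between 2.90 and 17.8 CPM. M4, the IL-6Ra/IL-21R library in set C, was at 39.4 CPM, while the other 6 libraries of its group lay between 7.24 and 14.1 CPM. Against total T cells Scd1 rose by 2.20 ± 0.55 (adjusted p = 0.00429), 2.73 ± 0.54 (adjusted p = 0.000573) and 1.51 ± 0.56 (adjusted p = 0.0493) in the order T-bet, IFN-γ and IL-17A/F. With the set as a term the Scd1 difference was -0.48, 0.05 and -1.16. Scd1 was above the range of sets A and B in 6 of the 7 set C libraries, M4 among them.

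Me1 was at 6.60 and 9.68 CPM, 16.4 and 8.34 CPM, and 3.25 and 8.32 CPM in the same 3 groups, and at 8.96 CPM in M4. In the total T libraries it was at 2.99, 0.301, 1.04, 1.78 and 0.537 CPM. Me1 rose by 2.58 ± 0.64 (adjusted p = 0.0043), 3.17 ± 0.64 (adjusted p = 0.000626) and 2.07 ± 0.65 (adjusted p = 0.0219). Fads2, the delta-6 desaturase, rose by 2.29 ± 0.72 with T-bet-deficient (adjusted p = 0.018) and by 2.33 ± 0.72 with IFN-γ-deficient T cells (adjusted p = 0.0135). Fads1 rose in all 3, by 0.70 ± 0.21, 0.58 ± 0.21 and 0.62 ± 0.21 (adjusted p = 0.0139, 0.035 and 0.0336). Fasn was called with T-bet-deficient T cells, at 73.0 and 67.1 CPM, a rise of 0.94 ± 0.28 (adjusted p = 0.0127), and at -0.29 with the set as a term. It was at 63.3 CPM in M4 and at or below 34.4 CPM in the other 6 libraries of that group.

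**Figure D4:**
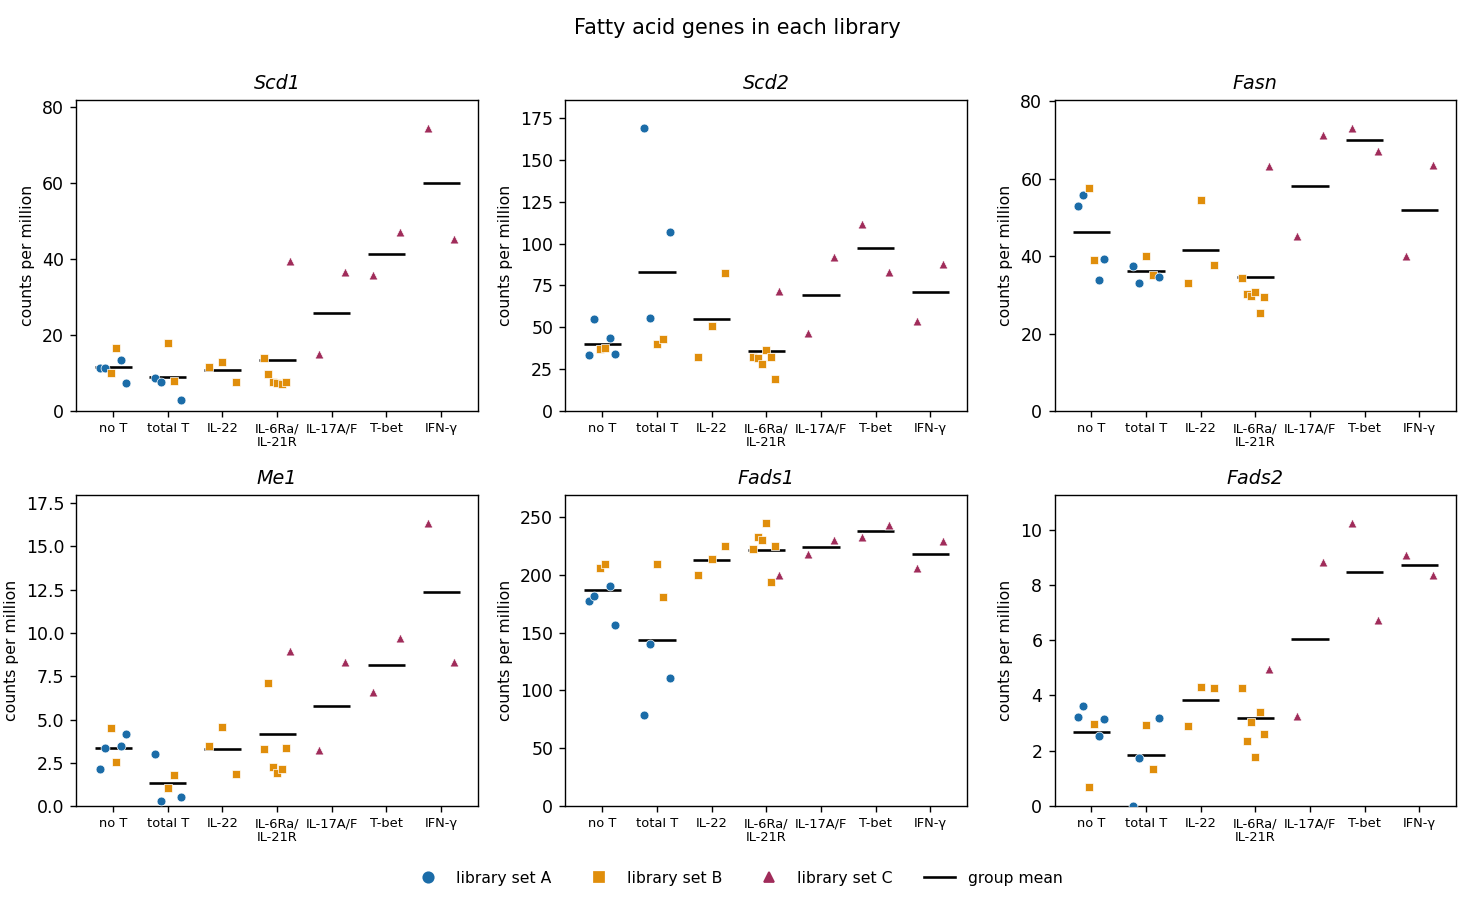
Each point is 1 library, with its level in CPM on an axis that starts at 0, grouped by the T cells given. Colour and shape mark the library sets and the black line is the group mean. The triangle in the IL-6Ra/IL-21R column is M4, the 1 library of that group in set C, and it lies above the 6 others in Scd1, Scd2, Fasn, Me1 and Fads2.

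Of the sterol genes, Fdps, the farnesyl pyrophosphate synthase, was lower in all 3 comparisons, by 1.15 ± 0.41 (adjusted p = 0.0358), 1.70 ± 0.43 (adjusted p = 0.00345) and 1.41 ± 0.42 (adjusted p = 0.0158) on the log2 scale. Mvd fell by 1.35 ± 0.36, 0.98 ± 0.36 and 1.40 ± 0.37 (adjusted p = 0.00727, 0.0345 and 0.00768). Its libraries were at 7.97 and 8.002 CPM, 13.5 and 7.37 CPM, and 8.004 and 7.41 CPM, and 5 of the 6 lay below the lowest library without T cells, at 8.21 CPM. Ebp fell by 0.57 ± 0.17, 0.76 ± 0.17 and 0.52 ± 0.16 (adjusted p = 0.0116, 0.00134 and 0.023). Pmvk fell by 1.08 ± 0.29 with T-bet-deficient (adjusted p = 0.00639) and 1.05 ± 0.29 with IFN-γ-deficient T cells (adjusted p = 0.00633). Insig1 fell by 0.76 ± 0.26 with IFN-γ-deficient (adjusted p = 0.0243) and 0.87 ± 0.26 with IL-17A/F-deficient T cells (adjusted p = 0.0174).

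Tm7sf2, a sterol reductase, fell by 2.43 ± 0.62 with IFN-γ-deficient (adjusted p = 0.00396) and 1.95 ± 0.60 with IL-17A/F-deficient T cells (adjusted p = 0.0196), from few counts, 2 and 30 in the IFN-γ pair. Idi1, with 3 counts in each IFN-γ library, fell by 2.61 ± 1.01 (adjusted p = 0.0465), and Msmo1 by 0.96 ± 0.34 (adjusted p = 0.0301), both in that comparison. Leaving out 1 library of a pair changed which genes were called. The IFN-γ calls depended more on F1 than on F2, but they changed without either library. Such fits leave 1 library in the group. F1 had the fewest counts of the 27 libraries, 6902602, and the fewest genes detected, 13225. Its macrophage marker sum of 19060 CPM was also the lowest. The falls with IFN-γ-deficient T cells thus lean on this shallow library, and the part of its depth was not tested.

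Between the groups of set C no gene of the 35 was called. IL-17A/F-deficient against the mean of T-bet- and IFN-γ-deficient T cells gave 0 called genes of the 35 by edgeR, against 0.00790% of all genes, and 0 by DESeq2. None of the 35 had an unadjusted p under 0.05 there, against 3.86% of all genes. T-bet- against IFN-γ-deficient T cells gave 0 by edgeR, against 0.00% of all genes, and 0 by DESeq2. Dhcr7, at a difference of 0.86, was the 1 gene of the 35 at an unadjusted p under 0.05, against 3.49% of all genes. Without the second IFN-γ library, which leaves only F1 in that group, the differences were 2.13 for Dhcr7 and 3.52 for Tm7sf2.

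Markers of other cells and of cell origin moved with set C, and their part in these results was not tested. The 10 fibroblast markers summed to between 3894 and 9049 CPM in set C, M4 at 7902 CPM included, and to between 567 and 2573 CPM in the other 20 libraries. All 10 were higher than with total T cells in each of the 3 groups. Of the 10 monocyte-derived markers 9, 8 and 7 were lower than with total T cells for T-bet, IFN-γ and IL-17A/F, and of the 10 border macrophage markers 9, 10 and 7 were higher. Of the adipocyte markers, Adipoq stayed at or under 1.16 CPM, Plin1 at or under 0.94 CPM and Cidec at or under 0.10 CPM in every library. The adipocyte list as a whole, in which Lpl, a gene that macrophages also express, was at 66.3 to 425 CPM, summed to 167 to 273 CPM in set C and to 245 to 515 CPM in the other libraries.

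Other genes of lipid metabolism were read beside the 35. Their lists were drawn up by function, but with earlier results of these data known. The shares called in them are given as description and were not tested against the share over all genes. Of 13 genes of sterol export, storage and oxysterols, 7 rose and none fell with total T cells against no T cells, or 53.8%, against 21.0% of all genes called. Nr1h3, which encodes liver X receptor alpha, rose by 1.94 ± 0.33 (adjusted p = 0.000215), and Soat1, which esterifies cholesterol for storage, by 0.83 ± 0.14 (adjusted p = 0.000189). Npc2, which carries cholesterol out of lysosomes, rose by 0.55 ± 0.10 and Abcg1, an exporter, by 1.00 ± 0.23. With IL-6Ra/IL-21R-deficient T cells 7 of the 13 fell and 2 rose against total T cells, or 69.2%, against 28.2% of all genes, and Nr1h3 fell by 1.67 ± 0.31 (adjusted p = 0.00027).

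Of 7 genes that supply NADPH or belong to the pentose phosphate pathway, 5 rose with total T cells against no T cells. That was 71.4%, against the same 21.0% of all genes. Among them were Taldo1 by 0.71 ± 0.15, Pgd by 0.61 ± 0.15 and G6pdx by 0.43 ± 0.11 of the pentose phosphate pathway. With IL-6Ra/IL-21R-deficient T cells 5 fell against total T cells, or 71.4%, against 28.2% of all genes. Of the 10 genes of glycerolipid synthesis 9 were tested. With total T cells 2 rose, Dgat2 by 1.81 ± 0.62 and Dgat1, and 3 fell, Agpat3 by 0.87 ± 0.18 among them. That was 55.6% called, against 21.0% of all genes. Of the 16 other genes of fatty acid synthesis and activation 15 were tested. With total T cells 3 rose and 1 fell, or 26.7%, near the share over all genes, led by the acyl-CoA synthetase Acsl1 at 1.43 ± 0.26 (adjusted p = 0.000482), while Acsl3 fell by 1.01 ± 0.26 (adjusted p = 0.00658). In the 3 groups of set C, Abca1, the other main cholesterol exporter, was higher than with total T cells, by 1.35 ± 0.22, 1.60 ± 0.22 and 1.44 ± 0.22 for T-bet, IFN-γ and IL-17A/F (adjusted p = 0.000144, 1.7e-05 and 0.000179). It was the only one of the 13 genes of sterol export that was called higher there, and 4, 5 and 3 of them were lower. Set and genotype cannot be told apart in those values.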

How the data were processed

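RNA-seq read counts per gene were deposited by the authors for 27 libraries. The file's name calls them normalized, but each column holds every count from 1 to 20 and totals differ, so they were treated as raw counts. STAR 2.4.0j, featureCounts, DESeq2 1.20.0 and GRCm38 are named in the submitters' processing notes; the treatment of reads with several matches has no entry in those notes. Per the labels, reads were single-end, 75 nucleotides long and unstranded. Of 41388 identifiers 40254 had a symbol in GENCODE M21, and those without took 0.106% to 0.143% of a library's counts. Columns were matched to groups and sexes by name and carry no replicate number, so libraries are numbered within group and sex. Libraries of a group differed beyond sampling noise in all 52 pairs (chi-square per degree of freedom 8.97 to 138).

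One edgeR 4.0.16 quasi-likelihood model (R 4.3.3, TMM scaling, group and sex as terms) was fitted over 27 libraries and 12661 genes whose normalized counts averaged 10 or more, with Benjamini-Hochberg adjustment over all of them, and was tested on simulated data. CPM use TMM-scaled library sizes. Library sets are clusters of ribosomal protein gene levels. Alternatives were DESeq2 1.42.0, other scaling, filters of none or 50, no sex term, females, single sets, the set as a term, the compared groups alone, and each library left out. Leaving out set C was added after seeing the data. The named genes are all called members, or the 12 with the smallest p where more were called, and at most 4 called genes per other list. Members and lists were chosen with earlier results of these data known. Promoters come from RefSeq, GRCm38.p6. A list of other genes of sterol synthesis and SREBP processing is not reported here.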

Additional observations from a re-analysis of the deposited data

Results flagged for a closer look

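Of 105 checks of a gene in a group of 4 or more libraries, 8 found 1 library far from the rest of its group, and chance alone flags about 5%. Of the 8, 4 shared a library. The male IL-6Ra/IL-21R library M4 of set C stood above the other 6 in Scd1 at 39.4 CPM (next 14.1), Scd2 at 71.6 CPM (next 36.5), Fasn at 63.3 CPM (next 34.4) and Acly at 205 CPM (next 156). Its fibroblast marker sum was 7902 CPM, against 754 to 2087 CPM in the other 6, and the part of that was not tested. In the same group, Hmgcs1 was low in F2 at 20.4 CPM (next 25.2). Cyp51 was high in total T F1 at 56.0 CPM (next 34.4). Sc5d was low in no T M2 at 9.79 CPM (next 17.6), and Scap was high in no T M1 at 60.2 CPM (next 46.5).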

How the results depend on the processing

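No paired analysis was possible because the table's columns are not tied to the titles' replicate numbers. Counts of called genes among the 35 moved as follows. Total T against no T, 9 in the main model, gave 5 with the compared groups alone, 2 in females and 0 in set B. IL-6Ra/IL-21R against total T, 13, gave 6 in females, 4 with the set as a term and 3 in set B. T-bet, IFN-γ and IL-17A/F against total T, 9, 12 and 8, gave 0, 0 and 0 with the set as a term and 3, 4 and 1 with the compared groups alone. IL-22 against total T, 0, gave 2 with no filter and 1 with DESeq2, where all genes called went from 11 to 1219 and 762. IL-22 against IL-6Ra/IL-21R, 0, gave 1 with no filter. IL-6Ra/IL-21R against no T, 0, gave 1 without set C. The test of any difference, 11, gave 17 with no filter and 4 with the set as a term. Leaving out each library in turn gave 4 to 10 for total T against no T, 8 to 14 for IL-6Ra/IL-21R against total T, 2 to 9 for T-bet, 4 to 12 for IFN-γ, 1 to 9 for IL-17A/F, 0 to 1 for IL-22 against total T, 0 to 1 for IL-6Ra/IL-21R against no T, 0 to 2 for T-bet against IFN-γ and 11 to 15 for any difference. A lone library of a pair is then assumed to vary like the other groups. With the set as a term 4 differences changed sign, Scd1 at -0.48 and Fasn at -0.29 for T-bet, Ebp at 0.00 (0.004) and Scd1 at -1.16 for IL-17A/F. Of 916 values for called genes under the alternatives, 678 kept direction and call, 234 kept only the direction and 4 reversed. Fewer libraries enter the fits of single sets, females and compared groups; for the other changes the cause was not tested. The set term for T-bet, IFN-γ and IL-17A/F rests on M4. Idi1, Fads2, Me1 and Tm7sf2 had few counts, so small differences in them were not detectable at this depth. Another scaling moved the median of all genes by under 0.1.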
